A study of Mus musculus with 29 samples.

Results

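The glycolytic isoenzymes described here are 10 of the 24062 genes of the RNA-seq table of mouse retinal cells. They were chosen by name, as the isoenzyme genes of 5 glycolytic steps that the retina is known to use: the hexokinases Hk1 and Hk2, the phosphofructokinases Pfkl, Pfkm and Pfkp, the aldolases Aldoa and Aldoc, the pyruvate kinase Pkm, and the lactate dehydrogenases Ldha and Ldhb. All 10 passed the filter on low counts. Glycolysis splits glucose into pyruvate, and lactate dehydrogenase then turns pyruvate into lactate or back. Several steps are run by isoenzymes, proteins from separate genes that catalyse the same reaction with different regulation, and tissues differ in which they make. Photoreceptors are known for aerobic glycolysis, the release of lactate although oxygen is present, and for their use of HK2, PKM2 and LDHA.

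The study compared sister cell classes of the mouse retina that relay light signals, the photoreceptors and the bipolar cells (BC), which were sorted by fluorescence from dissociated adult retinas. For RNA-seq there were 15 libraries, 3 each of pan-BC (all bipolar cells, Otx2-GFP+/- mice, postnatal day 44 to 47), ON-BC and OFF-BC (both Otx2-GFP+/-; Grm6-YFP+/+, day 42 to 48), rods (Nrl-eGFP, day 56) and blue cones (Nrl-eGFP;NrlKO photoreceptors, day 56). ATAC-seq, which measures how accessible chromatin is, had 2 libraries of each of these populations and 2 of green cones (Opn1mw-GFP, day 56), and here the pan-BC mice (day 43 and 44) also carried Grm6-YFP+/+ according to the labels. The ON-BC and OFF-BC of the ATAC-seq were from day 42 and 46, and rods and blue cones from day 56. All bipolar cells thus came from mice heterozygous for GFP inserted at the Otx2 locus, the YFP that separates ON-BC is driven by the Grm6 promoter, and OFF-BC were sorted a second time. Blue cones were the cone-like cells that take the place of rods when Nrl is deleted and are a surrogate for native cones. The photoreceptor data were taken over from a previous study by these authors, so class, study and age cannot be told apart in any comparison between bipolar cells and photoreceptors.

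The libraries held 12329548 to 26266746 counted reads of RNA-seq and 4176776 to 12345845 of ATAC-seq. Values are normalized counts, which are reads divided by 1 size factor per library. Nrl lay at 485.5 to 764.1 in the blue cone libraries and at 11476 to 16599 in rods. The summed level of 5 markers of ON bipolar cells was 98624 to 111272 in ON-BC, 83235 to 90317 in pan-BC and 5802 to 10152 in OFF-BC, and no more than 1462 in photoreceptors. That of 5 OFF bipolar markers was 35458 to 58516 in OFF-BC, 8386 to 11844 in ON-BC and no more than 720.1 in photoreceptors. A list of 5 general bipolar markers did not separate bipolar cells from blue cones, with 93075 to 113792 in OFF-BC and 244299 to 255618 in blue cones. The bipolar libraries also held photoreceptor transcripts. The summed level of 8 rod markers was 33444 to 42037 in pan-BC, 20348 to 25582 in ON-BC and 3617 to 17906 in OFF-BC, against 1822805 to 2504629 in rods. That of 8 cone markers was 44754 to 70999 in pan-BC, 5120 to 5912 in ON-BC and 29991 to 104776 in OFF-BC, against 1501640 to 1726195 in blue cones. None of these 16 markers was at 0 in any population. OFF-BC replicate 3 stood apart, with the short-wave opsin Opn1sw at 55813 against 4477 and 4314 in the other OFF-BC libraries. In sorted bulk samples, fewer cells of a type and less RNA per cell cannot be told apart.

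Genes were tested with limma's treat, which asks whether a change is larger than 2-fold, and p-values were adjusted over all 14024 genes tested (Benjamini-Hochberg, below 0.05 called). Of the 10 isoenzyme genes, 2 were called between pan-BC and rods, where 43.6% of all genes were called. Between pan-BC and blue cones 2 were called, against 36.3% of all genes. Between ON-BC and OFF-BC 1 was called, against 6.55%, and between rods and blue cones 2 were called, against 15.9%. The called share of the isoenzymes was thus below that of all genes in both comparisons across classes, and within 1 gene of it in the other 2. The called genes were Hk2, Pfkm, Pfkp and Ldhb, and the other 6 were called in none of the 4 comparisons. Differences of any size were also tested for, and the isoenzymes passed about as often as all genes. When limma tested for any difference from 0, 7 of the 10 passed between pan-BC and rods (79.5% of all genes), 9 between pan-BC and blue cones (76.3%), 3 between ON-BC and OFF-BC (27.0%) and 6 between rods and blue cones (57.5%). The comparisons of pan-BC with rods and with blue cones share the pan-BC libraries, and both share libraries with the comparison of rods with blue cones.

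**Figure D1:**
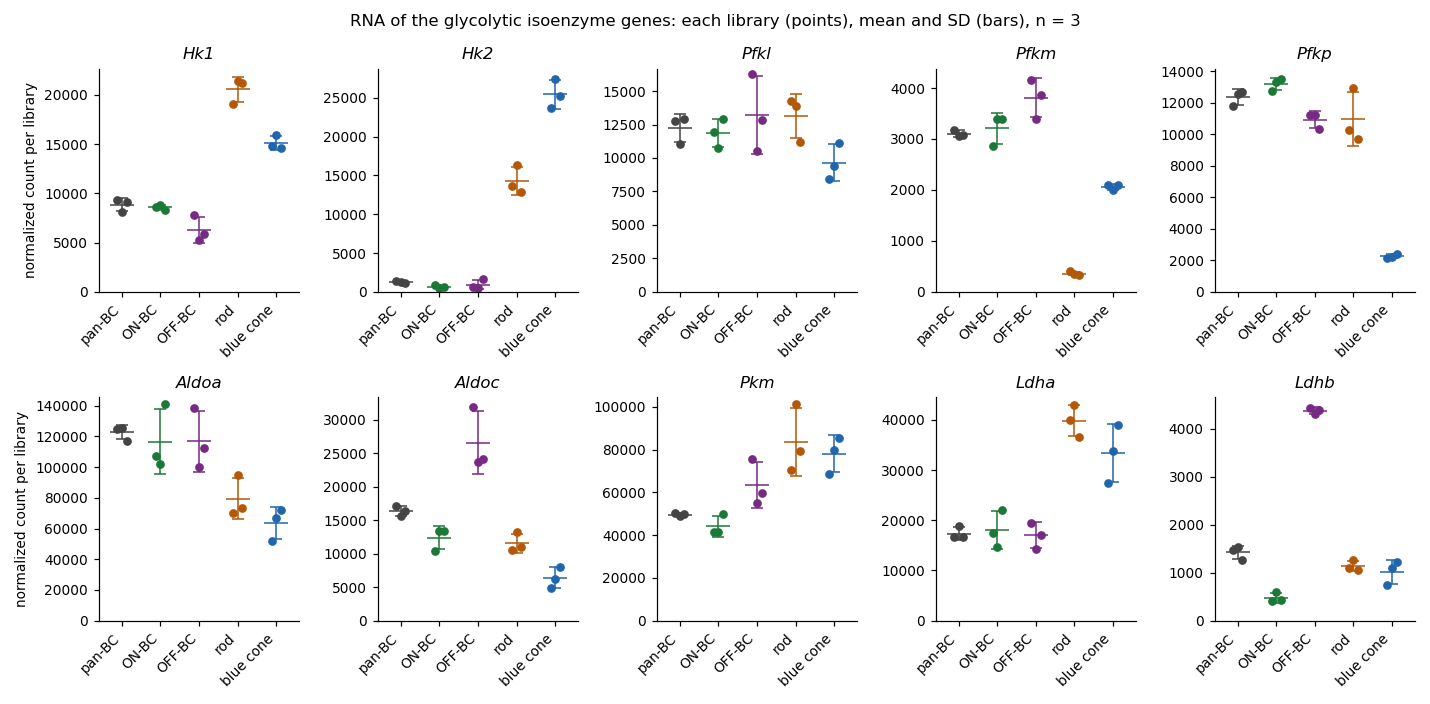
Normalized RNA-seq counts of the 10 isoenzyme genes in pan-BC, ON-BC, OFF-BC, rods and blue cones, with 1 point per library and the mean and SD of 3 libraries as bars, on a linear axis from 0. Hk2 is at 12929 or more in all photoreceptor libraries and at 1644 or less in all bipolar ones, Pfkm is lowest in rods, Pfkp is lowest in blue cones and Ldhb is highest in OFF-BC.

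**Figure D2:**
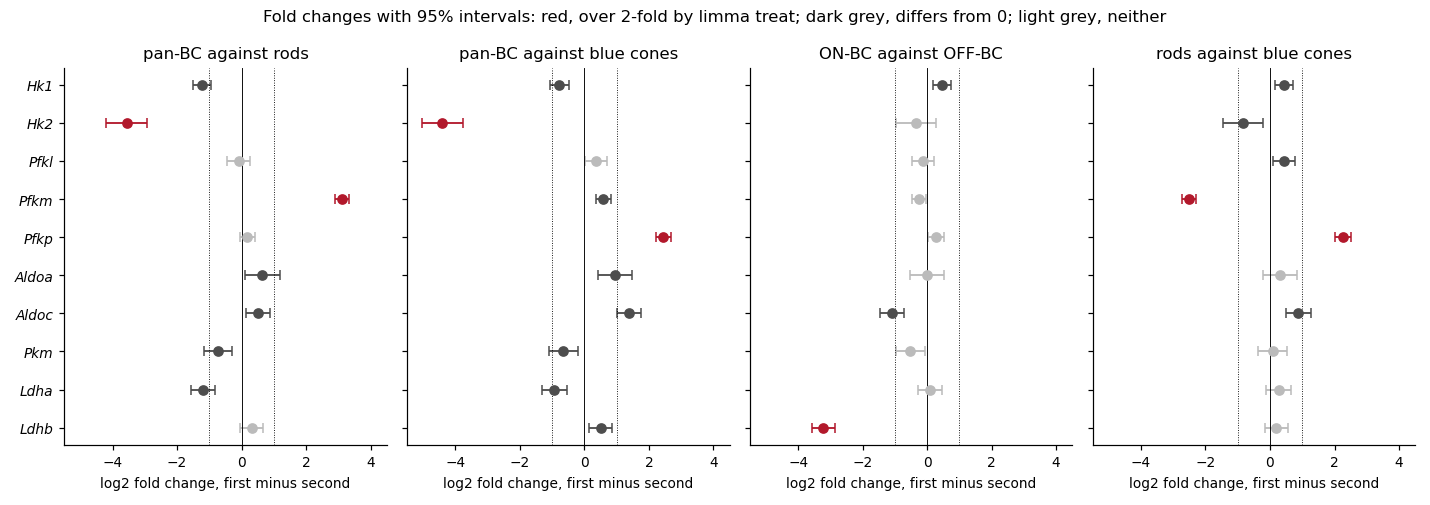
Log2 fold changes of the 10 genes in the 4 comparisons (x axis, first population minus second) with 95% confidence intervals; dotted lines mark a 2-fold change. Red points are called by limma's treat: Hk2 and Pfkm between pan-BC and rods, Hk2 and Pfkp between pan-BC and blue cones, Ldhb between ON-BC and OFF-BC, and Pfkm and Pfkp between rods and blue cones.

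Hexokinase traps glucose in the cell by phosphorylating it. Hk2, the inducible form, was much lower in bipolar cells than in photoreceptors. Its normalized counts were 13600, 16313 and 12929 in rods and 23715, 27431 and 25187 in blue cones. The bipolar libraries held 1343, 1213 and 1075 (pan-BC), 845.1, 481.1 and 644.3 (ON-BC), and 620.3, 532.2 and 1644 (OFF-BC). Photoreceptor and bipolar libraries did not overlap, and neither did rods and blue cones. Hk2 was 11.8-fold lower in pan-BC than in rods (log2 fold change -3.56 ± 0.30, SE; adjusted p = 5.48e-07 by limma's treat) and 21.1-fold lower than in blue cones (-4.40 ± 0.30; adjusted p = 3.02e-08). Between rods and blue cones the log2 fold change of -0.84 ± 0.30 was below the 2-fold limit (adjusted p = 1 by treat) but differed from 0 (adjusted p = 0.0232 by limma). Between ON-BC and OFF-BC it was -0.35 ± 0.30 (95% interval -0.98 to 0.28). This value rested on OFF-BC replicate 3, the library with high Opn1sw, and turned to 0.155 without it.

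The Hk2 level of bipolar libraries was set beside the photoreceptor transcripts they held. In the 3 pan-BC libraries Hk2 stood at 7.53 to 9.41% of the rod mean. Against blue cones, Hk2 stood at 4.23 to 5.28% and Opn1sw at 2.30 to 4.15%. In OFF-BC replicate 3, Hk2 reached 6.46% of the blue cone mean and Opn1sw 4.57%, against 2.09 to 2.44% and 0.353 to 0.366% in the other 2 OFF-BC libraries. How far carried-over photoreceptor RNA sets the Hk2 level of bipolar libraries was not tested.

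Hk1, the constitutive hexokinase of neurons, was also lower in bipolar cells, by less. Its normalized counts were 19064, 21361 and 21186 in rods and 14629 to 15893 in blue cones. They were 8109 to 9270 in pan-BC, 8287 to 8847 in the ON type and 5224 to 7746 in the OFF type. No 2 of the groups overlapped except pan-BC and ON-BC. The log2 fold change was -1.22 ± 0.13 between pan-BC and rods, not called over 2-fold (adjusted p = 0.13 by limma's treat), and -0.78 ± 0.13 between pan-BC and blue cones. Both differed from 0 (adjusted p = 2.59e-07 and 5.53e-05 by limma). Hk1 was slightly higher in ON-BC than in OFF-BC (log2 fold change 0.47 ± 0.13; adjusted p = 0.0143 by limma against 0). Per kb of exon, the summed level of both hexokinases was 7145 ± 508 (SD, n = 3) in rods and 7967 ± 476 in blue cones, against 2180 ± 145 for pan-BC, 2019 ± 55.7 for ON-BC and 1561 ± 289 for OFF-BC.

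The Hk2 promoter is shown because, like the RNA, its accessibility was lower in every bipolar library than in every photoreceptor library. It is the RefSeq window from 250 bases before to 50 after the transcription start, at chr6:82774405-82774704 (GRCm38.p6, minus strand). Capitals mark ACGTG read on the other strand, the core letters of the element bound by hypoxia-inducible factors.
Hk2 promoter: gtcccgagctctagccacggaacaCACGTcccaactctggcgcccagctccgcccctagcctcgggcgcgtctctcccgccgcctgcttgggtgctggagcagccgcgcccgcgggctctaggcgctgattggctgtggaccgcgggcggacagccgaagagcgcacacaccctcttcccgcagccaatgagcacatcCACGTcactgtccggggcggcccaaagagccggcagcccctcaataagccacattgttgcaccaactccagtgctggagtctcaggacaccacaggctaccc
ACGTG occurred 2 times in it and in 19.6% of all 32851 RefSeq promoter windows. The match is a description of letters, not a bound site. The ATAC-seq region of 200 bp in this window, centred 114 bp before the start and intergenic, had normalized counts of 808 and 804 in rods, 478 and 446 in blue and 467 and 441 in green cones. Bipolar cells had 242 and 240 (pan-BC), 224 and 300 (ON-BC) and 220 and 237 (OFF-BC). Bipolar and photoreceptor libraries did not overlap. Pan-BC lay below rods (log2 fold change -1.74 ± 0.16; adjusted p = 0.000313 by limma's treat over all regions), and the difference from blue cones was not called (-0.94 ± 0.16; called by edgeR at -1.24). Rods lay above blue cones here (0.80; adjusted p = 0.000611 by limma against 0), opposite to the RNA.

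Phosphofructokinase commits sugar to glycolysis and is made of liver (Pfkl), muscle (Pfkm) and platelet (Pfkp) type subunits. Rods and blue cones each lacked most of one subunit's RNA, and not the same one. Pfkm was low in rods, at 398.8, 345.2 and 332.8, against 2092, 1991 and 2105 in blue cones. In pan-BC it was 3177, 3064 and 3071, in ON-BC 2854, 3389 and 3385, and in OFF-BC 4154, 3398 and 3868. Rods lay below all other libraries, and blue cones lay below all bipolar ones. Pfkm was 8.65-fold higher in pan-BC than in rods (log2 fold change 3.11 ± 0.10; adjusted p = 8.27e-12 by limma's treat) and 5.75-fold lower in rods than in blue cones (-2.52 ± 0.10; adjusted p = 2.16e-09). Between pan-BC and blue cones it differed by less than 2-fold (0.59 ± 0.10).

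Pfkp was low in blue cones, at 2159, 2213 and 2413 normalized counts, against 10255, 12910 and 9723 in rods. Of the bipolar libraries, pan-BC held 11800 to 12705, ON-BC 12746 to 13512 and OFF-BC 10327 to 11247. Blue cones lay below every other library, while rods overlapped with all 3 bipolar groups. Pfkp was 5.47-fold higher in pan-BC than in blue cones (log2 fold change 2.45 ± 0.11; adjusted p = 7.94e-09 by limma's treat) and 4.81-fold higher in rods than in blue cones (2.27 ± 0.11; adjusted p = 8.05e-08). Between pan-BC and rods the log2 fold change was 0.18, with a 95% interval of -0.06 to 0.43. Pfkl was the steadiest gene of the family, with group means from 9658 in blue cones to 13219 in OFF-BC. It was called in no comparison, and differed from 0 only between rods and blue cones (0.44 ± 0.16; adjusted p = 0.0272 by limma). Per kb of exon, the summed level of the 3 genes was 6963 ± 250 for pan-BC, 7101 ± 330 for ON-BC, 7082 ± 854 for OFF-BC, 5953 ± 718 in rods and 3575 ± 374 in blue cones (SD, n = 3), so that blue cones held the least.

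The Pfkp promoter window, at chr13:6648722-6649021 (GRCm38.p6, minus strand), is shown because its accessibility was lowest in the population with the least Pfkp RNA. Capitals mark TAATCC, the letters that the homeodomain factors CRX and OTX2 are known to prefer, and GCGTG, a second form of the hypoxia element, on either strand.
Pfkp promoter: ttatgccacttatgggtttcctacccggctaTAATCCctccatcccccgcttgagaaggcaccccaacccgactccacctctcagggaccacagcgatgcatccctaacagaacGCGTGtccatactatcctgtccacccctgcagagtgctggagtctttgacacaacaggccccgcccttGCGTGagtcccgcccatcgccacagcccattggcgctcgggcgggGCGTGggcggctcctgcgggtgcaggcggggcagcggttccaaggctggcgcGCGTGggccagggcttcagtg
It held TAATCC 1 time, as did 7.06% of all promoter windows, and GCGTG 4 times, where 32.4% of windows held it at least once. The region centred 43 bp before the start, in an annotated exon of Pfkp, had normalized counts of 253 and 196 in blue cones, 310 and 303 in green cones and 401 and 340 in rods. Bipolar cells had 555 and 702 (pan-BC), 672 and 769 (ON-BC) and 594 and 367 (OFF-BC). It was called higher in pan-BC than in blue cones (log2 fold change 1.48 ± 0.20), and not than in rods (0.76 ± 0.20). The call against blue cones was lost when pan-BC replicate 2 (1.32), blue cone replicate 2 (1.30) or either green cone replicate (1.48) was left out, and also with TMM (1.18), by edgeR (adjusted p = 0.0852) and with both cone types at 1 level (1.25).

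Pfkp also had the most regions of the 10 genes, 20 of the 65 whose nearest transcription start was that of an isoenzyme. Of these 20, 15 were more accessible in pan-BC than in rods and 19 than in blue cones, and none was less accessible. Of all regions, 40.3% were called more accessible in pan-BC than in rods and 28.8% than in blue cones. Regions up to 766 kb before the start were assigned in this way, and being nearest does not show that a region acts on Pfkp. The largest change against rods was in a region 350 kb before the start, in an intron of Gm40662 at chr13:6998576-6998775 (GRCm38), which is shown on the plus strand with its TAATCC in capitals.
Pfkp distal region: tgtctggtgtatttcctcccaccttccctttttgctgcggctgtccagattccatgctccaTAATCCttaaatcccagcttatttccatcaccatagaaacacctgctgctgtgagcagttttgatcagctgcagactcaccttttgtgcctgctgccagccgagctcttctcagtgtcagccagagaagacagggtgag
It had normalized counts of 195 and 296 in pan-BC, 266 and 278 in ON-BC and 159 and 142 for OFF-BC, against 0 and 1.36 in rods, 6.48 and 4.34 for blue and 14.6 and 22.5 for green cones. Pan-BC exceeded rods by a log2 fold change of 7.30 ± 0.42 and blue cones by 5.26 ± 0.42. A region 17.9 kb after the start, exonic in Pfkp or the overlapping Gm35730, had 96.0 and 157 in pan-BC and no read in any rod or blue cone library. Against 3 reads over the group, the limit that a count of 0 allows, pan-BC were at least 116-fold higher than rods and at least 90.8-fold higher than blue cones. Rods thus had almost no reads in these regions, and Pfkp RNA that overlapped with the bipolar level. For Pfkm, whose RNA was low in rods, the main promoter region had 41.3 and 46.1 in rods, 76.0 and 41.6 in pan-BC and 127 and 130 in blue cones. Limma's treat called it in no comparison. By edgeR it was called lower in rods (-1.63; adjusted p = 0.0356) and in pan-BC (-1.45; adjusted p = 0.046) than in blue cones. Rods also differed from blue cones against 0 (-1.54; adjusted p = 0.000635 by limma). A second Pfkm start, in an intron, had 46.7 and 40.7 in rods against 3.20 and 6.27 in pan-BC (log2 fold change -3.01 ± 0.57, called).

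Aldolase splits fructose bisphosphate, and Aldoa and Aldoc are its muscle and brain forms. Aldoa was the most abundant isoenzyme in every population, with 34951 to 67281 normalized counts per kb of exon as group means. It was higher in bipolar cells, at 117324 to 125753 normalized counts in pan-BC against 70374 to 94605 in rods and 52045 to 72424 in blue cones. Pan-BC overlapped with neither photoreceptor population, but the log2 fold changes of 0.64 ± 0.25 and 0.96 ± 0.25 were below the 2-fold limit (adjusted p = 1 for both by limma's treat, and 0.0285 and 0.00255 against 0). Aldoc was highest in OFF-BC, at 31976, 23674 and 24137, against 10412, 13440 and 13385 in ON-BC and 17102, 15677 and 16370 in pan-BC. Rods held 10579 to 13187 and blue cones 4857 to 7985. The log2 fold change of Aldoc was -1.10 ± 0.18 between ON-BC and OFF-BC, which is not called over 2-fold (adjusted p = 1 by limma's treat) but differed from 0 (adjusted p = 0.000162 by limma). Against blue cones, pan-BC was 2.62-fold higher (1.39 ± 0.18; adjusted p = 0.0577 by limma's treat). That value was called without OFF-BC replicate 1 (1.39) and without blue cone replicate 3 (1.57), and also by edgeR on all libraries (1.29; adjusted p = 0.0399). The single Aldoc region, at its start, kept the order of the RNA within each class but not between the classes. Its mean accessibility was 164 for OFF-BC, 115 for pan-BC and 104 for ON-BC, while rods had 578 and blue cones 336. ON-BC against OFF-BC (-0.66 ± 0.19) and rods against blue cones (0.78 ± 0.19) were not called over 2-fold. Both differed from 0 (adjusted p = 0.0174 and 0.00422 by limma). Between the classes, pan-BC had 114 and 116 against 584 and 573 in rods (log2 fold change -2.32 ± 0.19, called), although Aldoc RNA was higher in pan-BC. In Aldoa, regions 1.60 and 1.81 kb after the start were far less accessible in pan-BC than in rods (-3.86 ± 0.35 and -4.30 ± 0.34, both called), again against the direction of the RNA.

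Pkm encodes pyruvate kinase, which makes pyruvate and ATP, as the M1 and M2 forms that arise by alternative splicing and cannot be told apart in counts per gene. It ran from 70522 to 101254 in rods and from 68796 to 85628 in blue cones, against 48711 to 50464 (pan-BC), 41326 to 49684 (ON-BC) and 55123 to 75450 (OFF-BC). Photoreceptors lay above pan-BC and ON-BC, and overlapped with OFF-BC. Pan-BC differed from rods (log2 fold change -0.74 ± 0.21; adjusted p = 0.00418 by limma against 0) and from blue cones (-0.65 ± 0.21; adjusted p = 0.0102), in both cases below 2-fold. A region 3.35 kb into the gene, in an intron, showed larger differences than the RNA. Its normalized counts were 38.4 and 47.9 in pan-BC and 23.9 and 43.9 in ON-BC, against 119 and 114 for OFF-BC, 273 and 266 for rods, and 275 and 261 for blue cones. Pan-BC were called below rods (-2.62 ± 0.26) and below blue cones (-2.61 ± 0.26). Its call between ON-BC and OFF-BC (-1.81 ± 0.26) was lost in 9 of the 12 fits that left out 1 library, and with both cone types at 1 level (-1.81), a pseudocount of 0.5 (-1.83) or one of 10 (-1.56). Leaving out 1 library gave -1.38 without ON-BC replicate 1, -1.78 and -1.84 without the first and second OFF-BC replicate, and -1.81 without either replicate of rods, blue cones or green cones.

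Lactate dehydrogenase is a tetramer of A and B subunits. LDHA is known to favour lactate formation, and LDHB its conversion to pyruvate. Ldha was higher in photoreceptors, at 39999, 42950 and 36645 in rods and 27510, 33754 and 38932 in blue cones, against 16576 to 18861 in pan-BC, 14713 to 22056 in ON-BC and 14340 to 19538 for OFF-BC. Bipolar and photoreceptor libraries did not overlap. The log2 fold change between pan-BC and rods was -1.20 ± 0.18, not called over 2-fold (adjusted p = 0.282 by limma's treat), and that between pan-BC and blue cones was -0.93 ± 0.18. Both differed from 0 (adjusted p = 1.06e-05 and 0.00017 by limma). ON-BC and OFF-BC overlapped (0.08, 95% interval -0.30 to 0.46).

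Ldhb divided the bipolar cells. OFF-BC held 4440, 4298 and 4391 normalized counts, against 400.4, 587.9 and 437.1 in ON-BC. Pan-BC, which contain both, lay between them at 1469, 1534 and 1261. Rods held 1108, 1260 and 1054, and blue cones 736.3, 1097 and 1220. OFF-BC lay above all other libraries and ON-BC below all others. Ldhb was 9.32-fold lower in ON-BC than in OFF-BC (log2 fold change -3.22 ± 0.17; adjusted p = 7.48e-08 by limma's treat), the only isoenzyme called between them, and it was called in every one of the fits that left out 1 library. Between rods and blue cones the levels overlapped (0.19, 95% interval -0.16 to 0.55). The summed rod markers were lower in OFF-BC than in ON-BC, at 3617 to 17906 against 20348 to 25582. OFF-BC held more cone transcripts, with Opn1sw at 0.353 to 4.57% of the blue cone mean against 0.0366 to 0.0673%. Both photoreceptor populations held less Ldhb than OFF-BC. The summed level of 10 Müller glia markers was 8116 to 12854 in OFF-BC, 6636 to 7872 in ON-BC and 7305 to 8880 in pan-BC. It was 2204 to 3589 in rods and 13904 to 17274 in blue cones. The part of glial RNA in the Aldoc and Ldhb levels was not tested.

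The Ldhb promoter, at chr6:142507908-142508207 (GRCm38.p6, minus strand), is shown because it was the only isoenzyme promoter whose accessibility was called between ON-BC and OFF-BC. Capitals mark GCGTG. The TAATCC of the Pfkp promoter was not found in it.
Ldhb promoter: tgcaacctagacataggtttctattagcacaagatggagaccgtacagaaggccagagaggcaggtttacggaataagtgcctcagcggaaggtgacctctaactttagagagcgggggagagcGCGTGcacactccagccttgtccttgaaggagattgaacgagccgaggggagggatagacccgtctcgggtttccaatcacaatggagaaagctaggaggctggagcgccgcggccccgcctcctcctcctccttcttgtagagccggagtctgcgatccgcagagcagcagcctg
The region of 200 bp centred 53 bp before the start (chr6:142507910-142508109, intergenic) had normalized counts of 31.4 and 26.4 in ON-BC against 131 and 136 in OFF-BC. Pan-BC lay between them at 52.8 and 59.9. Rods held 171 and 175, blue cones 188 and 157, and green cones 200 and 261. ON-BC lay below OFF-BC by a log2 fold change of -2.18 ± 0.23 (adjusted p = 0.00204 by limma's treat over 108448 regions), and the region was called in each of the 12 fits that left out 1 library. The promoter was thus open in OFF-BC and photoreceptors, while the RNA was high in OFF-BC alone. Pan-BC were called lower than rods (-1.60 ± 0.23) and blue cones (-1.59 ± 0.23). The first of these calls was lost without pan-BC replicate 1 (-1.52), rod replicate 1 (-1.62) or rod replicate 2 (-1.59), and the second without pan-BC replicate 1 (-1.50) or blue cone replicate 1 (-1.46). Both were also lost with a pseudocount of 10 (-1.47 and -1.46).

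Ldha regions were mostly less accessible in bipolar cells. Of 11 Ldha regions, 8 were called less accessible in pan-BC than in rods and 4 than in blue cones, and none was called more accessible. Of all regions, 11.2% were called less accessible in pan-BC than in rods and 7.13% than in blue cones. Of the 8, 7 lay before the start and 1 after it. The largest change was in an intergenic region 6.24 kb before the start, at chr7:46839469-46839668 (GRCm38), shown on the plus strand because it was nearly closed in every bipolar library. None of the motifs named here was found in it, so it has no capitals.
Ldha upstream region: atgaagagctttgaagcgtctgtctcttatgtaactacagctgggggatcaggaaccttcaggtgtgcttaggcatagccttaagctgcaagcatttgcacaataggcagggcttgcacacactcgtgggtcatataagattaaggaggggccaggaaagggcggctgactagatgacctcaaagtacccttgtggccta
Its normalized counts were 355 and 363 in rods, 106 and 79.5 for blue and 151 and 101 for green cones, against 3.20 and 5.70 in pan-BC, 11.9 and 2.93 for ON-BC and 14.8 and 11.7 for OFF-BC. Pan-BC lay below rods by a log2 fold change of -6.08 ± 0.46 and below blue cones by -4.13 ± 0.46. Of the 3 Ldha promoter regions, none was called in any comparison. The one with the highest signal had 226 and 214 in pan-BC, 307 and 282 in rods and 161 and 138 for blue cones. Rods lay above blue cones there (0.98 ± 0.21; adjusted p = 0.00121 by limma against 0). In another, rods had 164 and 146 against 48.8 and 46.2 in pan-BC (-1.68 ± 0.38). In the last, ON-BC had 70.2 and 43.9 against 10.8 and 9.73 in OFF-BC (2.33 ± 0.46).

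**Figure D3:**
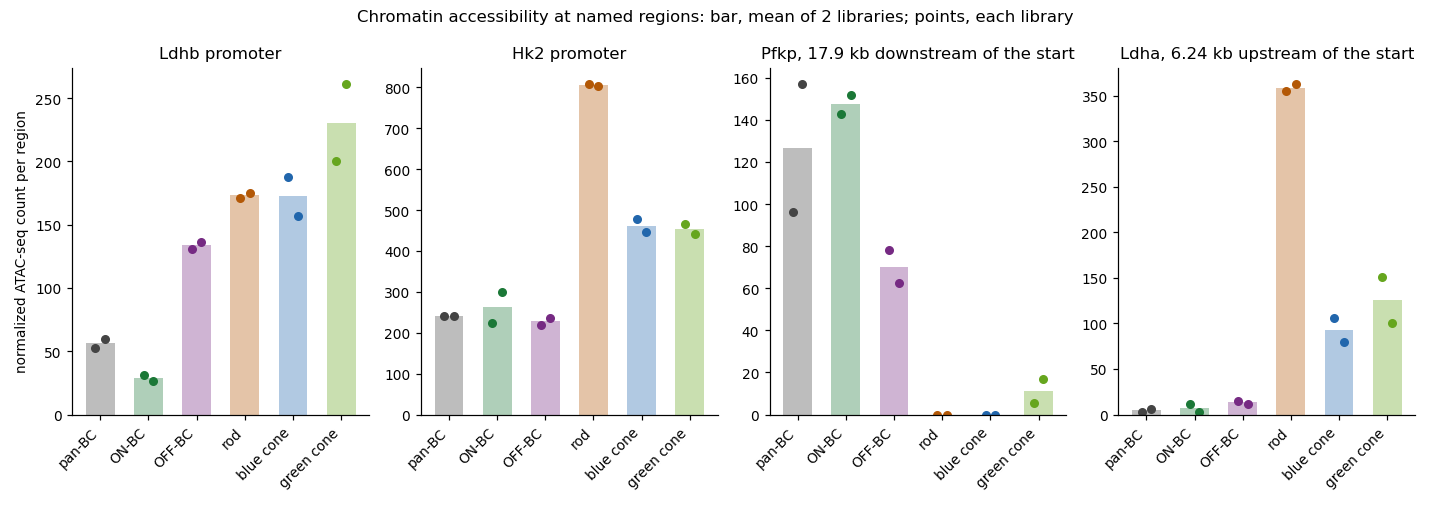
Normalized ATAC-seq counts in 4 regions of 200 bp, with bars for the mean of 2 libraries and points for each library, in the 3 bipolar and 3 photoreceptor populations. The Ldhb promoter is at 31.4 or less in ON-BC and at 131 or more in OFF-BC, the Hk2 promoter is highest in rods, the Pfkp region is at 0 in rods and blue cones, and the Ldha region is at 14.8 or less in all bipolar libraries.

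Over all 65 regions, 41 were called between pan-BC and rods (19 higher and 22 lower in pan-BC), where 51.6% of all regions were called (40.3% higher and 11.2% lower). Between pan-BC and blue cones 32 were called (21 higher, 11 lower), against 35.9% (28.8% higher and 7.13% lower). Between ON-BC and OFF-BC 4 were called, against 7.39%, and between rods and blue cones 3, against 10%. The higher regions were mostly those of Pfkp. Of the 15 promoter regions, 6 were called between pan-BC and rods, all lower in pan-BC, and 31.0% of all promoter regions were called there (17.2% higher and 13.8% lower). Against blue cones 4 were called (1 higher, 3 lower), where the background was 15.3% (11.5% higher and 3.76% lower). Between ON-BC and OFF-BC the Ldhb promoter was the only 1, where 1.27% of all promoter regions were called, and between rods and blue cones none was, where 6.59% were. The median log2 fold change (pan-BC minus rods) was -0.37 over 16496 promoter regions, although more of them were called higher than lower, and -1.28 over the 15. Among the 65 regions, 12 (18.5%) held TAATCC on either strand, near the 21.8% of all 110715 regions.

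The balance within each family was measured as the share of 1 isoenzyme in the family's reads per kb of exon, which does not depend on the size factors. The Hk2 share of hexokinase was 57.9% ± 1.0 (SD, n = 3) in blue cones and 36.2% ± 2.6 in rods, against 10.1% ± 1.1 for pan-BC, 5.90% ± 1.6 for ON-BC and 10.8% ± 6.8 for OFF-BC, where replicate 3 had 18.7% and the others 6.15 and 7.69%. Among phosphofructokinases, Pfkm made up 1.96% ± 0.24 in rods and 14.4% ± 0.55 to 18.7% ± 1.8 elsewhere. Pfkp made up 15.2% ± 0.68 in blue cones and 37.2% ± 4.5 to 44.4% ± 1.5 elsewhere, and Pfkl made up 66.1% ± 2.5 in blue cones, 54.1% ± 3.1 in rods and 41.0% ± 2.4 to 45.4% ± 4.6 in the bipolar populations. The Aldoc share of the aldolases was 12.6% ± 0.56 in OFF-BC and 6.41% ± 1.1 in ON-BC. The Ldhb share of lactate dehydrogenase was 27.8% ± 2.8 in OFF-BC, 10.8% ± 0.72 in pan-BC and between 3.91 and 4.28% in ON-BC, rods and blue cones. In 19 of the 24 comparisons of shares the groups did not overlap. The exact permutation test of 3 libraries against 3 (two-sided) cannot go below p = 0.1, which all 19 reached (0.126 after Benjamini-Hochberg adjustment over the 24), so no difference in share could pass 0.05.

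**Figure D4:**
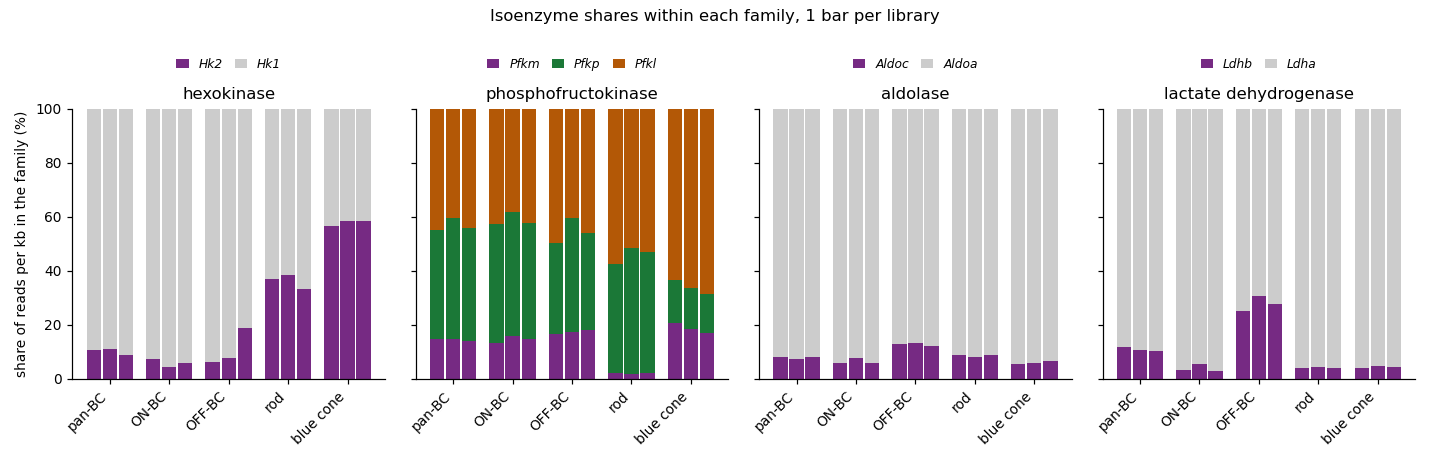
Share of each isoenzyme in the reads per kb of exon of its family (y axis, percent), with 1 stacked bar per library and 3 libraries per population. Hk2 makes up more of hexokinase in rods and blue cones, Pfkm nearly disappears in rods (1.96%), Pfkp shrinks in blue cones (15.2%) and Ldhb reaches 27.8% in OFF-BC.

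Other genes of glycolysis were read from a list of 39 transporters, enzymes, regulators and genes of pyruvate entry into mitochondria, of which 36 were tested. Between pan-BC and rods 17 were called (11 higher and 6 lower in pan-BC), between pan-BC and blue cones 19 (14 higher, 5 lower), between ON-BC and OFF-BC 2 (both lower in ON-BC), and between rods and blue cones 8 (5 higher, 3 lower in rods), to be read against the shares of all genes given above. The median log2 fold change of the list was 0.56 between pan-BC and rods and 0.40 between pan-BC and blue cones, beside 0.21 and 0.16 over all genes.

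The largest difference between ON-BC and OFF-BC in this list was in Slc16a7, which encodes the monocarboxylate transporter MCT2 that carries lactate and pyruvate. Its normalized counts were 6403, 4865 and 4544 in OFF-BC, 745.6, 906.9 and 992.3 in pan-BC, and 46.43, 48.99 and 32.83 in ON-BC. It was thus ordered as Ldhb was, with OFF-BC above pan-BC above ON-BC, and ON-BC lay below OFF-BC by a log2 fold change of -6.92 ± 0.43 (adjusted p = 4.85e-08 by limma's treat). Photoreceptors held almost none, with 0 to 3.881 in rods and 11.28 to 15.94 in blue cones. From 7 reads in rods and 2411 in pan-BC, the ratio was 367 (95% exact interval 178 to 915, counting error only). Slc16a7 was also the largest change between pan-BC and rods (log2 fold change 8.32 ± 0.43), and it was called against blue cones too (5.98 ± 0.43). Pklr was the other gene of the list called between ON-BC and OFF-BC. It encodes the liver and red cell pyruvate kinase and was at 242.5, 183.8 and 169.9 in OFF-BC against 27.44 to 29.92 in ON-BC (-2.72 ± 0.39; adjusted p = 0.00451 by limma's treat). It was all but absent from photoreceptors, with 1 read in rods and 1 in blue cones. Its ratio between pan-BC and rods was 183 (95% exact interval 32.5 to 7290), and the interval of that between pan-BC and blue cones was 44.3 to 9940.

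Pfkfb2, which makes the activator of phosphofructokinase, was 26.0-fold lower in pan-BC than in rods, at 678.6 to 893.2 against 19805 to 20395 (-4.70 ± 0.12; adjusted p = 1.03e-13 by limma's treat). Between rods and blue cones, Hkdc1, a hexokinase relative, was lower in rods (0.9702 to 11.89 against 65.87 to 121.8; -3.95 ± 0.51). Pfkfb3, a relative of Pfkfb2, was higher in rods (138.3 to 308.5 against 16.69 to 25.16; 3.24 ± 0.25), and so was Pdk1, a kinase that inhibits pyruvate dehydrogenase (167.5 to 335.7 against 24.82 to 33.39; 2.96 ± 0.22). All 3 were called.

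Gapdh, Pgk1 and Eno1, enzymes that every cell uses, had few reads. Their group means were 254.1 to 1003 for Gapdh, 503.2 to 1088 for Pgk1 and 24.67 to 181.5 for Eno1, against 7964 to 18141 for Eno2, the neuronal enolase. Reads that match several places in the genome are left out by the counting. Whether near-identical copies of these genes lowered their counts was not tested. Eno1b, such a copy of Eno1, was counted at 1313 in pan-BC against 34.59 for Eno1, so their changes are uncertain. The sum of Eno1 and Eno1b was 1348 ± 17.5 (SD, n = 3) for pan-BC, 269.6 ± 66.7 for rods and 47.77 ± 8.43 for blue cones, so that pan-BC lay above rods in the sum and below them in Eno1 alone. Gapdh was called higher in pan-BC than in blue cones (log2 fold change 1.89 ± 0.19), and Eno1 was called below rods in pan-BC (-2.34 ± 0.35) and 6.50-fold higher in rods than in blue cones. Pgk1 and Eno2 were called in no comparison. RefSeq also lists 6 pseudogenes of the isoenzyme families, 2 of Aldoa, 3 of Ldha and 1 of Ldhb, with which those genes may share reads.

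**Figure D5:**
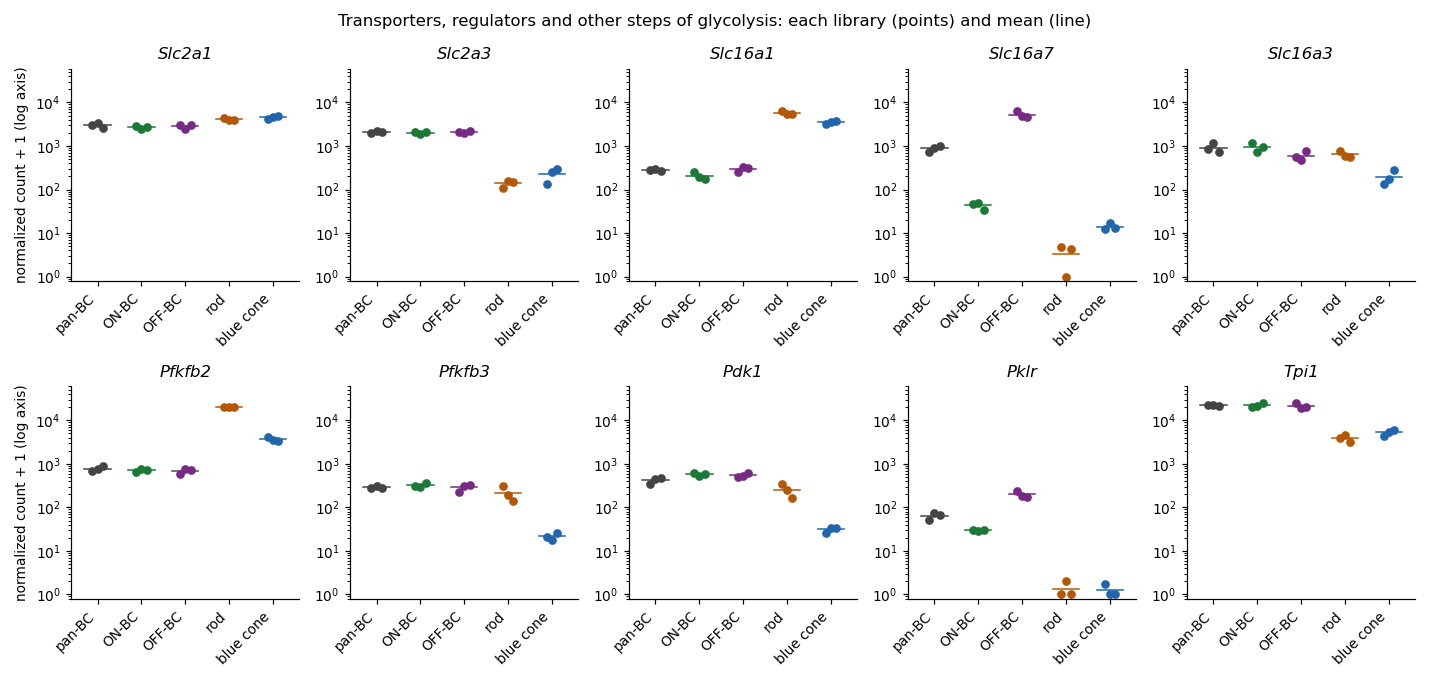
Normalized RNA-seq counts plus 1 (log axis) of 10 transporters, regulators and enzymes of glycolysis that were picked after their values were seen, with 1 point per library and a line for the mean of 3. Slc16a7 and Pklr are highest in OFF-BC and near 0 in photoreceptors, Pfkfb2 is highest in rods, and Pfkfb3 and Pdk1 are lowest in blue cones.

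For each isoenzyme the 2 genes with the most similar pattern were taken, by Pearson's r of log2 values over the 15 libraries among 10150 genes with a mean of at least 100. These r values are descriptive, since libraries of 1 population share their level. Hk2 was closest to Tulp1 (r = 0.989), a photoreceptor gene that stood at 38665 in rods and 55027 in blue cones as a mean and at 909 or less in bipolar cells, and to Zfp874a (0.987). Hk1 was closest to Plekha7 (0.981) and Alpl (0.979). Pfkm was closest to Psd3 and Maged2 (0.995 for both), which were also lowest in rods, and Pfkp to Nfasc (0.986) and Coro2b (0.985), lowest in blue cones. Ldhb was closest to Marcks (0.954) and Galntl6 (0.947), both highest in OFF-BC. Aldoc was closest to Apip (0.978) and Triap1 (0.958), Aldoa to Sdhd (0.965) and Cnbp (0.956), Pkm to Ckmt1 (0.971) and Oat (0.965), and Ldha to Prr14 (0.972) and Rsl1d1 (0.970). Pfkl, the steadiest gene, had the weakest partners, Tuba1b (0.854) and Taf8 (0.833). Among the isoenzymes themselves, Ldha went with Hk1 (r = 0.91) and Hk2 (0.90), and Hk1 ran opposite to Pfkm (-0.86).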

How the data were processed

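RNA-seq and ATAC-seq libraries of FACS-purified retinal cells were analysed from 2 tables of normalized counts, 1 of genes and 1 of 200 bp regions. Single-end RNA-seq reads had been aligned by the authors to GRCm38/mm10 with STAR 2.7.0d and assigned to RefSeq gene models by HTSeq 1.9. ATAC-seq reads had been aligned with Bowtie2 2.2.5, peaks called with MACS2 2.1.1 and reads counted in regions, and the submitters' processing notes also name SAMtools 1.3, Picard 2.19.0 and bedtools 2.24.0. The Bowtie2 and SAMtools versions are those of these notes, and the study's methods name later ones. The signal values that the authors deposited are counts divided by 1 size factor per library, so whole reads could be recovered. Within 0.01 read, 230384 of 230384 gene values above 0 and 1212862 of 1212862 region values came out whole. The deposited peak lists were not used, and 2 double-sorted green cone libraries, which the region table does not cover, were not analysed here.

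Low genes and regions were removed with filterByExpr of edgeR 4.0.16. Log2(normalized count + 1) was fitted with limma 3.58.1 in R 4.3.3, 1 level per population and all libraries of an assay together, and limma's treat (trended prior) tested for a change above 2-fold. Fold changes are on this scale, which understates those of low genes. P-values were adjusted over all features (Benjamini-Hochberg). The paper calls the replicates biological, and ages differ within each bipolar group. Where libraries of a group share an age, the labels do not say whether they came from separate animals. The p-values measure the spread between these libraries, which may be partly technical. Alternatives were other pseudocounts, no filter, TMM, edgeR and DESeq2 1.42.0 on the recovered reads, a test for any difference, only the 2 populations compared, a single level for both cone types, a replicate block, a carry-over rule and leaving out each library. Limma's treat was checked on simulated data for genes and for regions, and the other tests were not.

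Lengths are the union of RefSeq exons. A region belonged to the nearest RefSeq transcription start, and to a promoter when centred from 1000 bp before to 100 bp after it. Promoter windows are from RefSeq (GRCm38.p6), where all 10 genes matched, and regions were read from the same build. The members and lists were chosen with earlier results of these data known. The text names, from the pathway list, the 4 called genes with the largest change per comparison and Gapdh, Pgk1, Eno1 and Eno2. Slc16a1, Slc16a3 and Slc16a8 were added to stand beside Slc16a7. Some of the genes this rule takes are not reported here. For each isoenzyme the promoter region with the highest signal and the called regions with the largest change were taken, of which those the results turn on are given.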

Additional observations from a re-analysis of the deposited data

How the results depend on the processing

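The counts of called isoenzyme genes (2, 2, 1 and 2 for pan-BC against rods, pan-BC against blue cones, ON-BC against OFF-BC and rods against blue cones) were within 1.5 times of these under the alternatives run, except for the test of any difference (7, 9, 3 and 6) and edgeR between pan-BC and rods (4, with Hk1 and Ldha added). Without 1 library each they were 2 to 2, 2 to 3, 1 to 1 and 2 to 2. The 41, 32, 4 and 3 called regions became 52, 18 and 29 in the last 3 comparisons when any difference was tested, 8 and 7 by edgeR in the last 2, and 2 with a pseudocount of 10 between ON-BC and OFF-BC. Leaving out 1 library gave 35 to 43, 25 to 34, 2 to 5 and 1 to 4. Over all genes, edgeR on the recovered reads called 6728, 5777, 1226 and 2739. Over all regions it called 12927 between ON-BC and OFF-BC and 19112 between rods and blue cones, against 8010 and 10871 in limma. TMM scaling moved the split of regions called between ON-BC and OFF-BC from 4972 higher and 3038 lower in ON-BC to 3583 and 3472. Its median over all regions moved from 1.16, 0.54, 0.15 and -0.20 to 0.97, 0.26, -0.07 and -0.27 in the 4 comparisons.

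Signs that turned were of uncalled values near 0, and the cause was not tested. Between ON-BC and OFF-BC, Aldoa (-0.005) became 0.023 with TMM and 0.026 by edgeR and ranged from -0.149 to 0.124 without 1 library. In the same fits Hk2 ranged from -0.658 to 0.155, Pfkl from -0.290 to 0.026, Ldha from -0.077 to 0.215 and Eno2 from -0.261 to 0.005. Between rods and blue cones Pkm ranged from -0.057 to 0.204, Ldhb from -0.025 to 0.339 and Pgk1 from -0.130 to 0.219. Of the promoter regions, Pfkm ranged from -0.066 to 0.788 between pan-BC and rods, and Hk1 from -0.180 to 0.344 between pan-BC and blue cones, where it was -0.156 with both cone types at 1 level, -0.219 with TMM and -0.273 by edgeR. Between ON-BC and OFF-BC, Hk1 ranged from -0.250 to 0.133. Pfkl ranged from -0.105 to 0.154 there, and was -0.201 with TMM and -0.197 by edgeR. Hk2 ranged from -0.025 to 0.396, and was -0.040 with TMM and -0.030 by edgeR. Between rods and blue cones, Ldhb ranged from -0.117 to 0.141, and was -0.192 with both cone types at 1 level, -0.064 with TMM and -0.061 by edgeR.

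ON-BC and OFF-BC share replicate numbers and ages, so same-numbered libraries may come from the same mice. Deviations of same-numbered RNA-seq libraries gave r = -0.076, 0.222 and -0.065, and those of other numbers -0.147 to 0.212. On 3 libraries per group this check cannot decide whether the numbers mark pairs. The labels do not say that they do, and the main fit used no pairs. With a replicate block, 2, 2, 1 and 2 genes and 40, 32, 5 and 3 regions were called. The depth and the 2 ATAC-seq libraries per group limit small changes of weak regions.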
